A study of Mus musculus with 22 samples.

Results

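Genes that were close to silent in cultured MC38 cells were compared between subcutaneous MC38 tumors of wild-type mice and normal mouse skin. Leaving out the genes that the cancer cells express turns the comparison toward the stroma and immune cells of the host. MC38 is a mouse colon adenocarcinoma line that grows as a transplantable tumor. The genes were selected on their level in the cultured cells: autosomal genes with a mean under 5 normalized counts over the 2 MC38 libraries, 28276 of the 46882 genes in the deposited table. The normalized count is the number of reads on a gene divided by the library's DESeq2 size factor. A total of 9617 of the 28276 genes are annotated as protein coding.

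The study took RNA from cultured MC38 cells (2 libraries, day 0), from tumors of wild-type C57BL/6N mice 23 days (3 libraries) and 46 days (3 libraries) after MC38 cells were placed under the skin of the left flank, and from skin of wild-type C57BL/6N mice labelled day 23 (2 libraries). It also took tumors of mice labelled RAG1-/- (B6.129S7-Rag1tm1Mom/J), 3 of day 13 and 3 of day 23. Mice with tumors and mice giving skin were 8 to 12 weeks old, and no group here carried a drug treatment. Tumors were grown in female mice and each excised tumor was divided into pieces, of which a single piece gave RNA. A mouse that lacks RAG1 cannot rearrange antigen receptor genes and so makes no mature T or B cells, but it still has macrophages, neutrophils and NK cells. The labels call the tumor samples tumor cells, although host genes such as C1qb were read in every tumor. Epcam, a surface marker of epithelium, had 0 and 3.91 normalized counts in cultured MC38 cells and was thus absent or nearly so from this epithelial line. The labels do not say whether replicates are separate mice, so that p-values measure the spread between these samples. The table of 6 tumors treated with antibodies was not analysed here.

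A subcutaneous tumor replaces a layered tissue. Skin is an epidermis of keratinocytes that build keratin filaments and a cornified envelope, with hair follicles and sebaceous glands, over a dermis of fibroblasts and vessels, a layer of fat and, in the mouse, a sheet of striated muscle. Its resident immune cells include Langerhans cells, dendritic epidermal gamma-delta T cells, mast cells and dermal macrophages. A growing tumor is fed by new vessels and is entered by monocytes, which become macrophages, and by lymphocytes. Macrophages supply the complement subunits C1qa, C1qb and C1qc and carry Fc receptors that bind antibody. Interferon-gamma, which T cells and NK cells release, induces the chemokine Cxcl9, guanylate-binding proteins and MHC class II.

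Libraries were made with QuantSeq, which reads each transcript near its 3′ end. Reads on genes numbered 7312850 to 17104093 in the wild-type tumors and 11477036 and 11537800 in skin. A floor of 3 reads per library stood for 1.88 to 4.75 normalized counts in the tumors and 4.02 and 3.82 in skin. These floors cover counting error only, since no molecular identifiers were used. The skin libraries carried reads of 5 Y-linked genes (Ddx3y 1803 and 1919 normalized counts), of which no tumor had more than 1 read, so that sex and tissue cannot be told apart. Of 43 genes with over 100 normalized counts in MC38 cells and at most 1 read in skin replicate 1, 42 were read in skin replicate 2, at a median of 5.51% of their MC38 level. That library therefore stands apart, and the counts over both days and those of many lists are given with and without it. Where 1 skin library remains, the test assumes that it varies like the other groups. Where a gene's adjusted p is given with either skin library left out, the value without replicate 1 stands first. The targeted gene Rag1 had 23 reads over the 6 libraries labelled RAG1-/- and 1 read over the 6 wild-type tumors. Where these 3′ reads lie relative to the disrupted part of the gene was not examined, so that they check nothing about the allele, and these libraries are called by their label.

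The selected genes took 18.3% and 14.7% of the reads in the skin libraries and 1.29% to 2.21% in the wild-type tumors (median 1.79%, mean 1.77% ± 0.434, SD, n = 6). Tumors and skin did not overlap, and the mean share in skin was 9.29 times that in the tumors. In cultured MC38 cells the share was 0.0790% and 0.0798%, fixed near 0 by the choice of genes. In tumors labelled RAG1-/- it was 0.923% to 1.82%. An exact permutation test of 6 tumors against 2 skin libraries has 28 splits and cannot go below a two-sided p of 0.0714, so that single values cannot pass 0.05 in this design and the tests below rest on a fit across all genes. In a bulk sample, fewer cells of a type and less RNA per cell cannot be told apart. A gene silent in culture can also be switched on in MC38 cells inside the mouse, and such reads cannot be told apart from host reads.

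Tumors and skin were tested with limma on log2(normalized count + 1) in a two-sided test adjusted over all 16554 genes whose mean over the 8 libraries was 5 or more. A log2 fold change on this scale is the mean of the tumors of both days minus skin and is too small for genes with few reads. At an adjusted p under 0.05, 20.4% of these genes were above skin in wild-type tumors and 34.0% below it, with a median log2 fold change of −0.22. Of the 28276 selected genes, 3605 could be tested. Another 15512 had no read in any of the 8 libraries, and 9159 had reads but a mean under 5. Among the 3605, 181 (5.02%) were higher, 2500 (69.3%) were lower and 924 did not pass, with a median log2 fold change of −3.60. Tumors hold MC38 cells, in which these genes had to be near 0, and a gene with a high level in skin alone passes the filter. The choice therefore favors lower genes, and neither their excess nor a list in which a like share was lower is read as a result. Of the 3605 genes, 1708 reached a mean of 5 in skin alone, 231 in the tumors alone and 1666 in both. Within the 1666, 83 were higher, 890 were lower and 693 did not pass, with a median of −1.84. No read was seen in any wild-type tumor for 223 of the 3605 genes, and none in either skin library for 38.

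**Figure D1:**
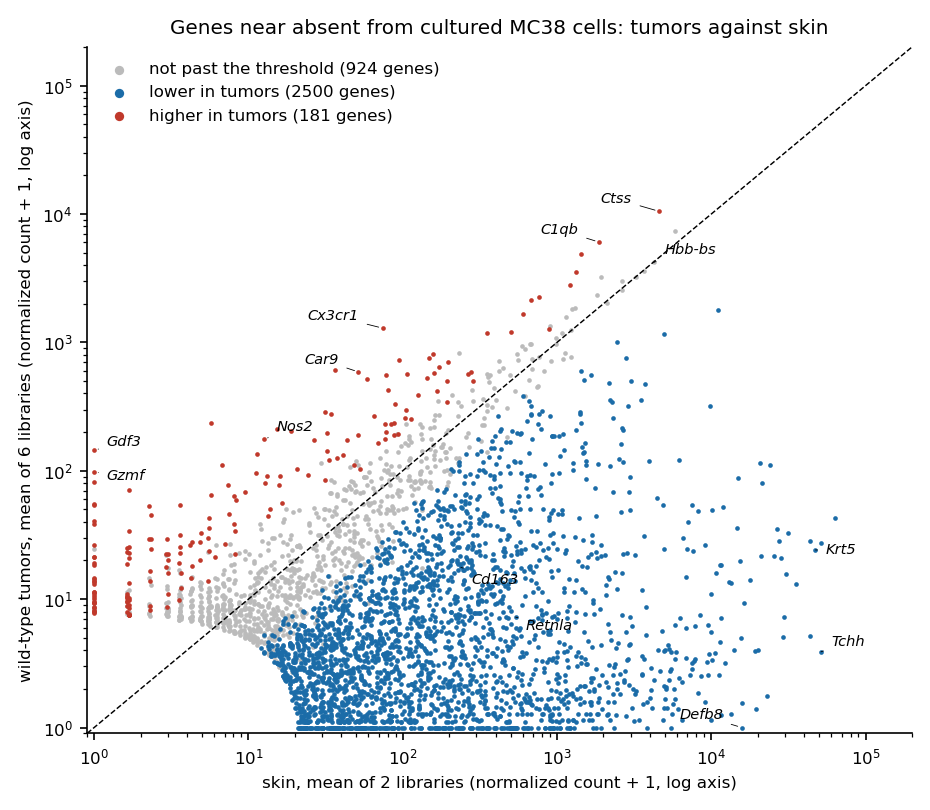
Mean normalized count in skin (2 libraries, horizontal log axis) against the mean in wild-type tumors (6 libraries, vertical log axis), each plus 1, for the 3605 tested genes with a mean under 5 in cultured MC38 cells. Red points are the 181 genes higher and blue points the 2500 genes lower in tumors at an adjusted p under 0.05, gray points the 924 others, and the dashed line marks equal means. Skin genes such as Krt5 and Tchh lie along the bottom right, while Ctss and C1qb lie above the line at high levels.

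Both counts fell when a skin library was left out. Without skin replicate 2 there were 159 higher and 1878 lower genes, and without skin replicate 1 there were 119 higher and 1827 lower genes. At the labelled day of the skin samples, day 23, 167 of the selected genes were higher and 2492 lower in tumors, where 19.0% and 32.6% of all genes tested passed. On day 46 the counts were 163 and 2319, where 18.0% and 30.7% of all genes passed. These comparisons share the 2 skin libraries. The threshold of 5 divided a continuum, since 405 selected genes had 4 to 5 normalized counts in MC38 cells and 286 other genes had 5 to 6. Just inside it, Hey1 had a mean of 4.95 in MC38 cells, 25.9 in tumors and 96.0 in skin. Just outside it, Dyrk1b had 5.01 in MC38 cells, 15.9 in tumors and 43.4 in skin.

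Epidermal structure was all but missing from the tumors. All 22 tested keratinocyte genes, all 17 tested hair genes and all 3 tested sebaceous genes were lower than in skin. Their median log2 fold changes were −12.11, −11.20 and −11.83. Of all tested selected genes, 69.3% were lower, with a median of −3.60. Krt5, the keratin of basal keratinocytes, had 1.48, 136 and 0 normalized counts in the day 23 tumors, 1.95, 0 and 0 in the day 46 tumors and 48702 and 45959 in skin (log2 fold change −13.87, standard error 1.49, adjusted p = 4.62e-05). Krtdap, a protein of differentiating keratinocytes, had 5.90, 241 and 0 on day 23, 2.93, 0 and 2.51 on day 46 and 63707 and 63372 in skin (log2 fold change −13.54, standard error 1.59, adjusted p = 7.92e-05). In both genes a single tumor, day 23 replicate 2, held nearly all tumor reads. Lor, loricrin of the cornified envelope, had 2.21, 19.6 and 0 on day 23, 0, 2.69 and 0 on day 46 and 28652 and 29471 in skin (log2 fold change −13.50, standard error 0.99, adjusted p = 5.37e-06). Flg, filaggrin, which bundles keratin filaments, had 0.738, 103 and 0 on day 23, 0.977, 4.03 and 48.3 on day 46 and 57662 and 44756 in skin (log2 fold change −12.89, standard error 1.66, adjusted p = 0.000145). Even the highest tumor lay far below either skin library in each of these genes. Krt2, a keratin of upper epidermis, had the smallest drop of this list on the log2 scale, with 87.1 and 25.5 in skin and 1 read over the 6 tumors, a ratio of skin over tumors of 403 (95% counting interval 70.5 to 16118).

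The hair genes separated the skin libraries from each other as well as from the tumors. Tchh, trichohyalin of the inner root sheath, had 8.11, 8.52 and 0 on day 23, 0, 0.671 and 0 on day 46 and 91458 and 11383 in skin (log2 fold change −13.78, standard error 0.98, adjusted p = 4.63e-06). Krt25, a keratin of the inner root sheath, had 42677 and 3445 in skin and at most 2.01 in any tumor. Krt71, a second keratin of that sheath, had 36273 and 2713 in skin and at most 1.48 in any tumor. Krt33a, a keratin of the hair shaft, had 28643 and 2998 in skin and at most 2.56 in a tumor. The skin libraries thus differed many-fold in these hair genes, and both were far above every tumor. Lgr5, a gene of follicle stem cells, had the smallest drop of the list with 1.48, 0 and 1.58 on day 23, 14.7, 29.5 and 10.7 on day 46 and 629.6 and 614 in skin (log2 fold change −6.76, standard error 0.56, adjusted p = 9.54e-06). Its day 23 and day 46 tumors did not overlap, although the difference between the days did not pass (log2 fold change 3.26, standard error 0.56, adjusted p = 0.319). In the sebaceous list Krt79, a keratin of the gland and its duct, had 31733 and 27894 in skin and at most 29.8 in a tumor. Cidea, a lipid droplet protein, had 1893 and 2343 in skin and 2 reads over the 6 tumors, a ratio of skin over tumors of 7714 (95% counting interval 2134 to 63724).

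The 15 largest drops among all selected genes, by the rule for named genes, were nearly all of epidermal genes, including genes outside the lists. Defb8, a beta-defensin, had 14118 and 17360.3 normalized counts in skin and no read in any wild-type tumor, at least 5775-fold lower in tumors with 3 reads per library as the floor. Fam25c had 0, 72.5 and 0 on day 23, 0, 0 and 0 on day 46 and 30258 and 40077 in skin (log2 fold change −14.05, standard error 1.39, adjusted p = 2.8e-05). Calm4, a calmodulin-like protein of the epidermis, had 36084 and 26832 in skin and reads in day 23 replicate 2 alone among the tumors (190.1). Stfa3, a stefin that inhibits cysteine proteases, had 0, 124 and 0 on day 23, 0.977, 0 and 0 on day 46 and 23716 and 27440.2 in skin. BC100530, a stefin-like gene, had 0, 164 and 0 on day 23, 0, 0 and 0.628 on day 46 and 20731 and 34506 in skin. Reads of the stefin copies are uncertain, since these genes resemble each other closely. Psapl1 had 15952 and 15086 in skin and at most 23.9 in a tumor. Lce1m, a late cornified envelope gene, had 9131 and 10901 in skin and 1 read over the tumors, a ratio of skin over tumors of 72926 (95% counting interval 13087 to 2880620). All of these genes passed the test, and day 23 replicate 2 was the highest tumor for each of them except Defb8, which had no read there.

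Promoter sequence is shown for a few genes that moved together, to let the letters upstream of their starts be seen, beginning with epidermal genes. The motif of AP-1 (TGANTCA), a factor known to act on keratinocyte differentiation genes, occurred in the window from 250 bases before to 50 bases after the start of 7 of the 16 keratinocyte genes with a RefSeq window (43.8%), against 8.97% of the 27025 genes with a window, 10.9% of the selected genes lower in tumors and 17.4% of those higher in tumors. Both strands were searched, and the motif reads the same on both. The 3 windows below come from genes named above that hold a match. They run 5′ to 3′ on the gene's strand from 220 bases before to 10 bases after the start, from RefSeq on GRCm38.p6, with the match in capitals. Krtdap lies at chr7:30787685-30787914, forward strand, Flg at chr3:93273326-93273555, forward strand and Lor at chr3:92083133-92083362, reverse strand. A match is a description of letters and no evidence that the factor binds there.
Krtdap: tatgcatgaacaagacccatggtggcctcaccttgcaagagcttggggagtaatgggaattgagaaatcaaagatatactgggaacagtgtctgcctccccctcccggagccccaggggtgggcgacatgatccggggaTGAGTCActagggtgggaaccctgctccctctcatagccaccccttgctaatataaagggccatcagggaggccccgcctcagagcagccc
Flg: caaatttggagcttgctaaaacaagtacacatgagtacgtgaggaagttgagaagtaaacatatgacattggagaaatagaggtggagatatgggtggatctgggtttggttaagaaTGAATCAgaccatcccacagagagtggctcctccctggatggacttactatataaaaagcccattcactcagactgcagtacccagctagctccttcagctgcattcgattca
Lor: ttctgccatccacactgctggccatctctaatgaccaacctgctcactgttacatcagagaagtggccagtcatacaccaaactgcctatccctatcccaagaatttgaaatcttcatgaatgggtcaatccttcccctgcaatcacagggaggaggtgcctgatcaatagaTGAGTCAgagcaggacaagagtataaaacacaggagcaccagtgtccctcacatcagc

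Genes of other tissues that lie in or under skin were also lower in tumors. Of all tested selected genes 69.3% were lower, so that the list counts alone are not read as a result about these tissues. All 8 tested melanocyte genes, all 10 tested adipocyte genes, 13 of 14 skeletal muscle genes and 5 of 6 genes of nerve were lower in tumors, with medians of −5.33, −8.12, −8.61 and −4.82. Without skin replicate 1, 4 of 5 melanocyte genes and 10 of 14 muscle genes were lower, and without skin replicate 2 8 of 14 muscle genes were. Tyrp1, an enzyme of pigment synthesis, had 753 and 252 in skin and no read in any tumor, at least 184-fold lower. Mlana, a melanosome protein, had 547 and 237 in skin and no read in any tumor, at least 144-fold lower. Adipoq, the hormone adiponectin of fat cells, had 3.69, 0 and 0 on day 23, 0.977, 2.01 and 34.5 on day 46 and 908 and 785 in skin (log2 fold change −8.06, standard error 1.05, adjusted p = 0.000157). Its highest tumor, day 46 replicate 3, was also the highest for Cfd (adipsin), with 183 against 7594 and 6630.2 in skin, and for Thrsp, a regulator of fat synthesis, where it held all tumor reads.

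Muscle genes were spread over more tumors than fat genes. Myh4, a fast myosin heavy chain, had 55.3, 0 and 31.7 on day 23, 0.977, 63.1 and 55.9 on day 46 and 23515 and 29430.1 in skin (log2 fold change −10.74, standard error 1.61, adjusted p = 0.00037). Ttn, the giant sarcomere protein titin, had 111, 12.8 and 39.6 on day 23, 16.6, 265 and 242 on day 46 and 11283 and 30239.6 in skin (log2 fold change −8.16, standard error 1.05, adjusted p = 0.000146). The tumors spread widely in these genes, with day 23 replicate 2 and day 46 replicate 1 the lowest for both. Myh2 did not pass, with 14.0, 0 and 11.1 on day 23, 0, 24.8 and 61.5 on day 46 and 87.1 and 80.3 in skin (log2 fold change −3.38, standard error 1.48, adjusted p = 0.0803). Tnnc2, troponin C, which overlaps Ube2c on the other strand, was lower (log2 fold change −9.44, standard error 1.94, adjusted p = 0.00244) but lost its call with either skin library left out (adjusted p = 0.0615 and 0.0763). Mbp, the myelin basic protein, had 81.9, 50.3 and 49.1 on day 23, 39.1, 69.2 and 47.7 on day 46 and 553 and 561 in skin (log2 fold change −3.33, standard error 0.33, adjusted p = 2.66e-05), with little spread in either group. Gap43, the remaining gene of nerve, had 7.38, 5.11 and 6.34 on day 23, 1.95, 13.4 and 3.77 on day 46 and 14.7 and 24.2 in skin and did not pass (adjusted p = 0.0519).

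**Figure D2:**
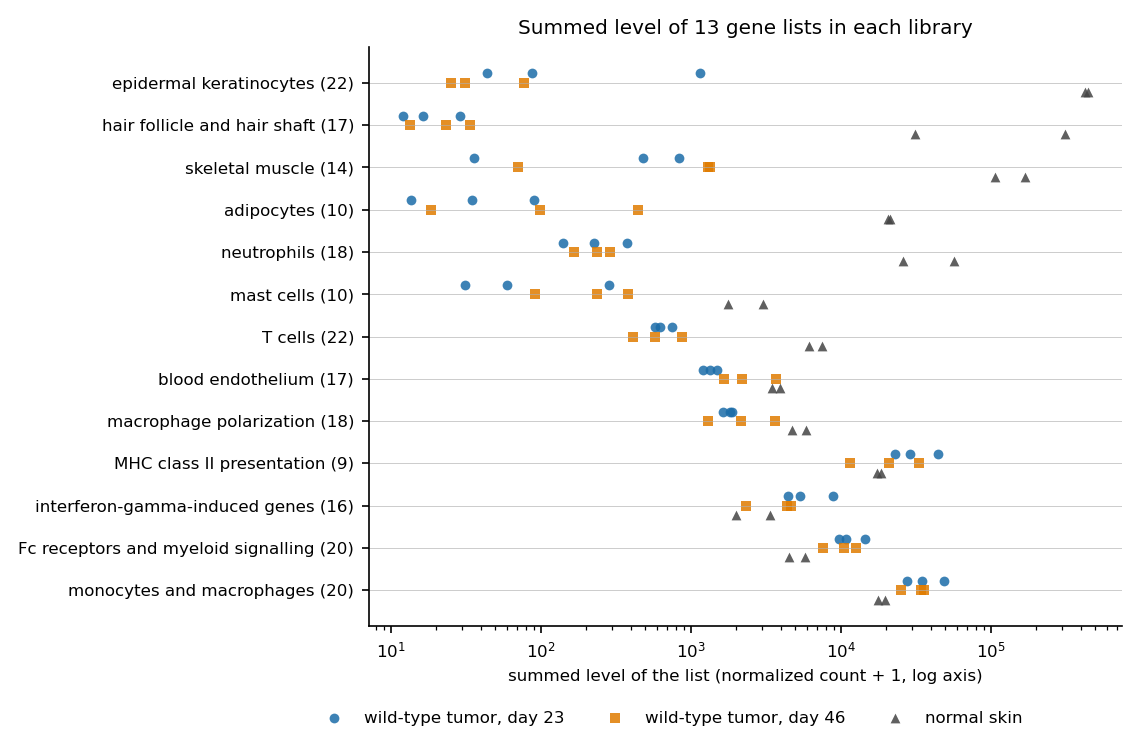
Summed normalized count plus 1 of the selected genes of 13 lists (number of genes in parentheses) in each library, on a log axis, with 3 day 23 tumors (circles), 3 day 46 tumors (squares) and 2 skin libraries (triangles). Keratinocyte genes summed to 24.2 to 1157 in tumors and to 422986 and 444314 in skin. Macrophage genes summed to 25336 to 48548 in tumors and to 17780 and 19870 in skin.

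Macrophage genes were among those that stood above skin. Of 20 tested genes of monocytes and macrophages, 9 were higher, 4 were lower and 7 did not pass, with a median log2 fold change of 0.94 beside −0.22 over all genes tested. Without skin replicate 1 there were 7 higher and 3 lower, and without skin replicate 2 there were 10 higher and 2 lower. C1qb (chr4:136880129-136886187, reverse strand), a chain of the complement starter C1q, had 8404, 6070.4 and 4917 normalized counts in the day 23 tumors, 4203, 6373 and 6300.3 in the day 46 tumors and 2162 and 1577 in skin (log2 fold change 1.68, standard error 0.25, adjusted p = 0.000319). C1qc (chr4:136889804-136893065, reverse strand) had 6093, 5372 and 4253 on day 23, 3077, 5304 and 5184 on day 46 and 1725 and 1128 in skin (log2 fold change 1.77, standard error 0.26, adjusted p = 0.000286). Every tumor was above both skin libraries in both genes. C1qa, the third chain, named after its values were seen, also rose (log2 fold change 1.42, standard error 0.23, adjusted p = 0.000569). The summed level of the list was lowest at 25336 in the tumors and highest at 19870 in skin, and was at most 11.1 in cultured MC38 cells.

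Cx3cr1 (chr9:119901616-120069879, reverse strand), the receptor of the chemokine Cx3cl1 on monocytes and tissue macrophages, was the furthest above skin in the list. It had 1997, 1112 and 704 normalized counts in the day 23 tumors, 1241, 1153 and 1534 in the day 46 tumors and 73.7 and 72.7 in skin (log2 fold change 4.05, standard error 0.32, adjusted p = 7.82e-06). Its ligand Cx3cl1, named after its values were seen, was lower in tumors, with 56.8, 14.5 and 34.9 on day 23, 29.3, 30.9 and 25.1 on day 46 and 269 and 186 in skin (log2 fold change −2.88, standard error 0.49, adjusted p = 0.000822). Ctss, cathepsin S, a protease that trims the invariant chain of MHC class II, had 16182, 11022 and 8341 on day 23, 7288, 9651 and 10489 on day 46 and 3665 and 5506 in skin (log2 fold change 1.18, standard error 0.27, adjusted p = 0.00461). All tumors were above skin for Ctss, but the call was lost without skin replicate 1 (adjusted p = 0.116). Tyrobp, the adaptor through which many myeloid receptors signal, had 3700.4, 2921 and 2440.2 on day 23, 1809, 3194 and 2855 on day 46 and 1078 and 1342 in skin (log2 fold change 1.19, standard error 0.24, adjusted p = 0.00206). It likewise missed the threshold without skin replicate 1 (adjusted p = 0.0629). The other genes that rose, named after their values were seen, were Trem2, a lipid-sensing receptor (log2 fold change 2.50, standard error 0.27, adjusted p = 4.46e-05), Fcgr4, an activating Fc receptor (log2 fold change 1.86, standard error 0.32, adjusted p = 0.000823), besides Ms4a7 (log2 fold change 1.26, standard error 0.21, adjusted p = 0.000778).

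Several genes known from resident or alternatively activated macrophages went the other way. Cd163, the scavenger receptor of hemoglobin, had 13.3, 0.852 and 3.17 on day 23, 17.6, 49.7 and 15.7 on day 46 and 182 and 292 in skin (log2 fold change −4.40, standard error 0.76, adjusted p = 0.000884). Mrc1, the mannose receptor, had 406, 276 and 136 on day 23, 736, 1250.2 and 517 on day 46 and 1507 and 1791 in skin (log2 fold change −1.90, standard error 0.41, adjusted p = 0.00313). No tumor reached the lower skin library in either gene, although the Mrc1 call was lost with either skin library left out (adjusted p = 0.0564 and 0.0829) and after rescaling on the selected genes (adjusted p = 0.12). Ccr2, the receptor that brings monocytes from blood, had 315, 233 and 63.4 on day 23, 332, 301 and 354 on day 46 and 355 and 1443 in skin (log2 fold change −1.61, standard error 0.61, adjusted p = 0.0492). Its call rested on skin replicate 2, without which the adjusted p was 0.589. Genes that did not pass included Csf1r, the growth factor receptor of macrophages (log2 fold change 0.12, adjusted p = 0.73), and Adgre1, which encodes F4/80 (log2 fold change 0.53, adjusted p = 0.0944), both also named after their values were seen.

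Nos2 and Il1b rose among the genes of macrophage polarization, and the others were lower or did not pass. Of 17 tested, 2 were higher, 10 were lower and 5 did not pass, with a median of −2.36. The share of lower genes is below the 69.3% of all tested selected genes and is not read as a result. Lower genes numbered 5 of 17 without skin replicate 1 and 7 of 16 without skin replicate 2. Both genes that rose are known from inflammatory activation. Tnf, Il6 and Il12b of the same list, also known from it and named after their values were seen, did not pass as higher. Tnf had 7.92 to 50.4 in tumors and 26.8 and 35.7 in skin. For Il6 the values were 1.70 to 14.1 in tumors and 2.68 and 1.27 in skin, and for Il12b 0 to 6.04 and 4.02 and 22.9. Nos2 (chr11:78920787-78960254, forward strand), the inducible nitric oxide synthase, had 161, 194 and 402 normalized counts in the day 23 tumors, 38.1, 129 and 123 in the day 46 tumors and 4.02 and 19.1 in skin (log2 fold change 3.81, standard error 0.65, adjusted p = 0.000795). Il1b, interleukin-1 beta, had 464, 420.3 and 359.7 on day 23, 285, 300.1 and 163 on day 46 and 60.3 and 116 in skin (log2 fold change 1.90, standard error 0.32, adjusted p = 0.000692). Every tumor exceeded both skin libraries in Nos2 and Il1b, and both genes passed in all 22 alternatives. Retnla, a gene of alternative activation that interleukin-4 induces, had 0, 0 and 0 on day 23, 3.91, 4.03 and 29.5 on day 46 and 289 and 788 in skin (log2 fold change −7.31, standard error 0.75, adjusted p = 3.47e-05), with no read in any day 23 tumor. Il1rn, which blocks interleukin-1 signaling and is also made by keratinocytes, had 286, 292 and 282 on day 23, 279, 402 and 124 on day 46 and 1350.3 and 1484 in skin (log2 fold change −2.43, standard error 0.36, adjusted p = 0.00032). Arg1, an arginase known from alternative activation, had 334, 576 and 404 on day 23, 638, 1217 and 186 on day 46 and 334 and 400.3 in skin, ranges that overlapped, and did not pass (log2 fold change 0.37, standard error 0.55, adjusted p = 0.595).

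**Figure D3:**
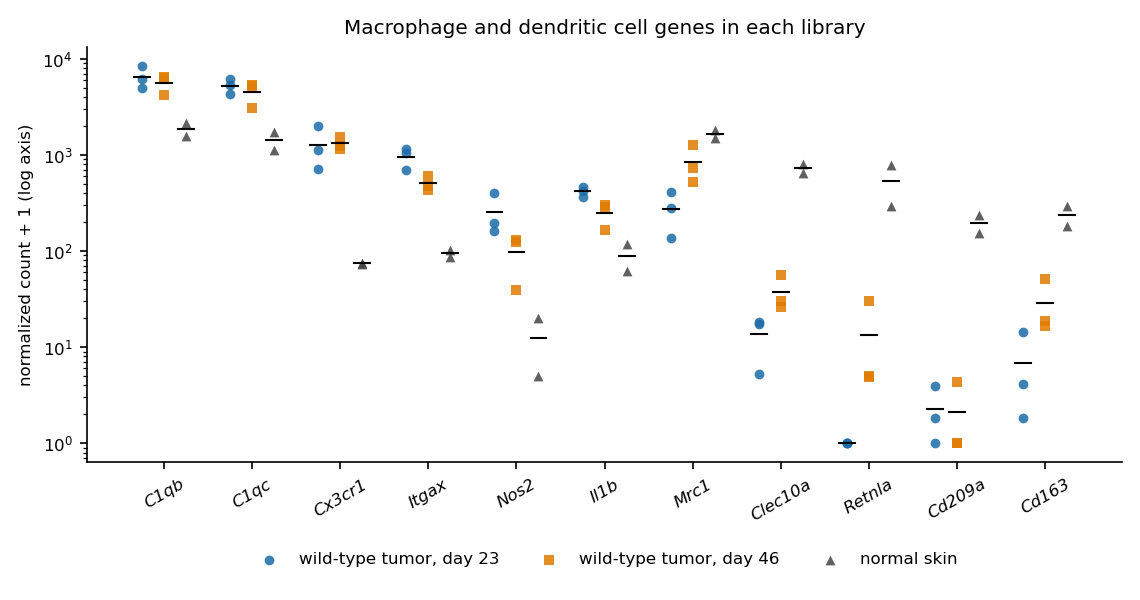
Normalized count plus 1 on a log axis for 11 macrophage and dendritic cell genes, with a point per library for day 23 tumors (3), day 46 tumors (3) and skin (2), and bars for the group means. C1qb, C1qc, Cx3cr1, Itgax, Nos2 and Il1b were higher and Mrc1, Clec10a, Retnla, Cd209a and Cd163 lower in tumors at an adjusted p under 0.05.

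Receptors and signaling genes of myeloid cells rose or did not pass, apart from Pirb. Of 18 tested, 11 were higher, 1 was lower and 6 did not pass, with a median of 1.19. Higher genes numbered 6 without skin replicate 1 and 10 without skin replicate 2. This list shares Tyrobp, Fcgr4, Trem2 and Fcgr1 with the macrophage list. Trem1, an activating receptor that amplifies inflammation, had 45.0, 44.3 and 31.7 normalized counts in the day 23 tumors, 29.3, 37.6 and 37.0 in the day 46 tumors and 0 and 0 in skin, at least 9.56-fold higher in tumors (adjusted p = 8.39e-06). Fcer1g, the signaling chain shared by Fc receptors, had 4774, 3169 and 3245 on day 23, 1988, 3983 and 3933 on day 46 and 1345 and 1303 in skin (log2 fold change 1.36, standard error 0.28, adjusted p = 0.00226). Fcgr1, a high-affinity Fc receptor, had 1025, 544 and 528 on day 23, 439.8, 567 and 504 on day 46 and 193 and 650.1 in skin and did not pass (adjusted p = 0.178). Of the skin libraries, 1 was above all tumors but 1. Fcgr2b, the inhibitory Fc receptor, had 625, 805 and 670.2 on day 23, 634, 1013 and 662 on day 46 and 612 and 753 in skin, ranges that overlapped (log2 fold change 0.09, 95% interval −0.38 to 0.56, adjusted p = 0.735). Pirb, an inhibitory receptor, was the gene that fell (log2 fold change −1.20, standard error 0.39, adjusted p = 0.0253), a call lost without skin replicate 2 (adjusted p = 0.335) and after rescaling to the same total (adjusted p = 0.115), with a log2 fold change of 0.09 on the scale of the selected genes.

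The binding motif of PU.1 (GAGGAAGT), the factor that defines the myeloid lineage, was looked for on both strands of the same promoter windows. It occurred in 12 of 121 windows of the selected genes higher in tumors (9.92%), in 69 of 1665 windows of those lower in tumors (4.14%) and in 3.69% of all 27025 genes with a window. Of 14 macrophage genes with a window, 3 held it (21.4%). Windows of 3 genes named above are shown because they hold a match, which lies on the opposite strand in each and so reads ACTTCCTC. They are drawn as for the epidermal genes, with the match in capitals. Ctss lies at chr3:95526566-95526795, forward strand, C1qc at chr4:136892905-136893134, reverse strand and Fcgr4 at chr1:171018706-171018935, forward strand. In Ctss and Fcgr4 the match lies close to the start, and in C1qc near the far end of the window.
Ctss: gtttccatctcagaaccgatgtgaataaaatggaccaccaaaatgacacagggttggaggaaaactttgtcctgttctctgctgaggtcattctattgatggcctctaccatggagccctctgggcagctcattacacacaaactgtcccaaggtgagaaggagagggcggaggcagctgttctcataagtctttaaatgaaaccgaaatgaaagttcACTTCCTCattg
C1qc: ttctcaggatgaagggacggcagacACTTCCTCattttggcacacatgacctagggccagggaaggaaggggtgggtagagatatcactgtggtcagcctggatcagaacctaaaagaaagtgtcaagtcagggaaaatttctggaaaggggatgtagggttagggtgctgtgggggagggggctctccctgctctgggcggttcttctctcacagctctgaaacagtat
Fcgr4: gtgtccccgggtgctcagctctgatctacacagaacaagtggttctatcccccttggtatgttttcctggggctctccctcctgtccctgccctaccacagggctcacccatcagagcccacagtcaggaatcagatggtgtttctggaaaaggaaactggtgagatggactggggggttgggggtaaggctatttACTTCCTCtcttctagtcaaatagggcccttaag

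Complement genes went both ways. Of 12 tested genes, 6 were higher and 5 were lower, and 1 did not pass. The genes that rose were the 3 C1q chains, the receptor C5ar1 and the integrin chains Itgam and Itgax of complement receptors, all carried by myeloid cells. Itgax had 1030.4, 701 and 1144 on day 23, 477, 603 and 428 on day 46 and 102 and 85.4 in skin (log2 fold change 2.86, standard error 0.23, adjusted p = 7.81e-06), with no overlap. The genes that fell were Cfd, C2, C4b, C6 and Serping1, soluble factors that stromal cells and fat also make. Serping1, the inhibitor of C1, had 183, 104 and 103 on day 23, 202, 780.2 and 172 on day 46 and 2934 and 1662 in skin (log2 fold change −3.50, standard error 0.53, adjusted p = 0.000376). C2, C4b, C6, C5ar1 and Itgam were named after their values were seen, with log2 fold changes of −3.89, −4.57, −4.05, 1.47 and 1.05.

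The 15 largest rises over skin by the rule for named genes were led by Gdf3, and many of these genes were at or near 0 in skin. Gdf3 (chr6:122605403-122610087, reverse strand), a ligand of the TGF-beta family, had 245, 176 and 116 normalized counts in the day 23 tumors, 54.7, 114 and 155 in the day 46 tumors and 0 and 0 in skin, at least 36.6-fold higher in tumors (adjusted p = 4.1e-06). Lilra5, a leukocyte receptor, had 171, 61.4 and 38.0 on day 23, 22.5, 52.4 and 74.1 on day 46 and 1.34 and 0 in skin, and with 1 read in skin its ratio of tumors over skin was 115 (95% counting interval 20.6 to 4561) at an adjusted p = 0.000155. Ocstamp, needed for the fusion of osteoclasts and macrophages, had 81.9, 51.1 and 66.5 on day 23, 22.5, 59.1 and 32.0 on day 46 and 0 and 2.55 in skin, with 2 reads in skin and a ratio of 39.5 (95% counting interval 10.9 to 327) at an adjusted p = 0.000123. Trpm2, a calcium channel of phagocytes, had 47.2, 18.8 and 28.5 on day 23 and 27.4, 30.2 and 44.6 on day 46, with 1 read in skin and a ratio of 52.3 (95% counting interval 9.29 to 2072) at an adjusted p = 0.000107. Adamdec1, a protease of macrophages, had 45.0, 27.3 and 6.34 on day 23 and 11.7, 16.8 and 15.1 on day 46 and no read in skin, at least 5.19-fold higher (adjusted p = 0.000557). Kcnj10, a potassium channel, had 42.0, 19.6 and 20.6 on day 23 and 12.7, 22.2 and 30.1 on day 46, with 1 read in skin and a ratio of 39.4 (95% counting interval 6.99 to 1565) at an adjusted p = 0.000274. Bcl2a1b, a survival gene of leukocytes whose near-identical copies make its reads uncertain, had 696, 677 and 526 on day 23, 494, 618 and 664 on day 46 and 46.9 and 24.2 in skin (log2 fold change 4.13, standard error 0.26, adjusted p = 2.82e-06).

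A block of granzymes that lie next to each other on chromosome 14 made up 4 of the 15. Granzymes are proteases that killer cells and mast cells keep in granules. Gzmf had 47.2, 95.5 and 177 normalized counts in the day 23 tumors, 20.5, 182 and 58.4 in the day 46 tumors and 0 and 0 in skin, at least 24.7-fold higher in tumors (adjusted p = 0.000112). Gzmd had 36.1, 98.9 and 68.1 on day 23 and 21.5, 87.3 and 11.3 on day 46 and no read in skin, at least 13.7-fold higher (adjusted p = 0.000185). Gzmg had 46.5, 52.0 and 36.4 on day 23 and 5.86, 89.3 and 5.65 on day 46 and Gzme 19.9, 42.6 and 19.0 on day 23 and 7.82, 57.1 and 5.65 on day 46, neither with a read in skin, at least 10.02-fold and 6.46-fold higher (adjusted p = 0.00164 and 0.00131). The tumors differed widely among themselves, and day 46 replicate 1 and replicate 3 held the lowest levels of Gzme and Gzmg. These genes are near-identical copies, and a read that fits several can be counted on the wrong copy, so that the 4 values are not independent. Tumors labelled RAG1-/- held them as well, with 34.0 to 376 for Gzmf and 20.9 to 293 for Gzmd. Gzmg had 33.4 to 248 and Gzme 11.8 to 120 in those tumors. Trem1 and Gdf3 above and Mcpt2 below had 14.9 to 64.2, 61.0 to 232 and 14.9 to 129 there. Each of these ranges overlapped that of wild-type tumors. Mcpt2, a protease of mucosal mast cells from the same family, had 26.6, 108 and 11.1 on day 23 and 7.82, 20.8 and 142 on day 46 and no read in skin, at least 13.4-fold higher (adjusted p = 0.0029), but it missed the threshold with either skin library left out (adjusted p = 0.0635 and 0.0645).

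Dendritic cell genes were lower or did not pass, apart from Itgax. Of 10 tested genes of conventional dendritic cells, 1 was higher, 4 were lower and 5 did not pass, with a median of −2.11. Fewer were lower than the 69.3% of all tested selected genes, and the count is not read as a result about these cells. With either skin library left out, 2 were lower. Clec10a, a lectin of dermal dendritic cells and macrophages, had 16.2, 4.26 and 17.4 on day 23, 25.4, 55.7 and 28.9 on day 46 and 649.7 and 804 in skin (log2 fold change −5.14, standard error 0.54, adjusted p = 4.2e-05). Cd209a, a lectin of monocyte-derived dendritic cells, had 2.95, 0.852 and 0 on day 23, 0, 3.36 and 0 on day 46 and 153 and 235 in skin (log2 fold change −6.74, standard error 0.73, adjusted p = 4.92e-05). Both lectins were lower in every tumor than in skin. Irf8, a factor of dendritic cells and macrophages, had 709, 407 and 389.8 on day 23, 394, 570.0 and 482 on day 46 and 351 and 377 in skin and did not pass (adjusted p = 0.207). Siglech, of plasmacytoid dendritic cells, had 49.6 and 70.1 in skin and at most 1.95 in a tumor, under the floor of 3 reads (log2 fold change −4.88, standard error 0.54, adjusted p = 5.4e-05).

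Genes of Langerhans cells and mast cells were lower in tumors or did not pass. Of 5 tested genes of Langerhans cells, 3 were lower and 2 did not pass. This share of lower genes is below the 69.3% of all tested selected genes and is not read as a result. Cd207, which encodes langerin of the Birbeck granules, had 1.48, 7.67 and 15.8 on day 23, 0.977, 6.71 and 5.02 on day 46 and 145 and 177 in skin (log2 fold change −4.83, standard error 0.77, adjusted p = 0.000563). Epcam, of Langerhans cells and epithelium, had 4.43, 6.82 and 1.58 on day 23, 0, 2.69 and 5.65 on day 46 and 2185 and 2819.9 in skin (log2 fold change −9.38, standard error 0.72, adjusted p = 6.79e-06). Cd74, the invariant chain of MHC class II, which other antigen-presenting cells also make, had 3859, 2412 and 2364 on day 23, 673, 1601 and 3137 on day 46 and 2067 and 1591 in skin and did not pass (adjusted p = 0.766). Of 9 mast cell genes, 8 were lower, with a median of −4.09. With 69.3% of all tested selected genes lower, this count is not read as a result about mast cells. The count fell to 2 of 8 without skin replicate 1 and to 5 of 8 without skin replicate 2. Cma1, a chymase of connective tissue mast cells, had 14.8, 38.4 and 11.1 on day 23, 30.3, 53.0 and 142 on day 46 and 1168 and 719 in skin (log2 fold change −4.72, standard error 0.61, adjusted p = 0.000149). Tpsb2, a tryptase of the same cells, had 8.85, 129.6 and 7.92 on day 23, 10.8, 34.2 and 99.8 on day 46 and 193 and 71.4 in skin, ranges that overlapped, and did not pass (adjusted p = 0.135). Of 10 selected genes of eosinophils and basophils only Ear2 could be tested, with 293 and 331 in skin and at most 6.91 in a tumor (log2 fold change −6.97, standard error 0.80, adjusted p = 6.9e-05).

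The neutrophil list was led in skin by genes that the epidermis also uses. Of 11 tested genes, 1 (Trem1) was higher, 7 were lower and 3 did not pass. With 69.3% of all tested selected genes lower, this count is not read as a result about neutrophils. S100a8, a subunit of calprotectin that neutrophils and stressed keratinocytes make, had 5.90, 2.56 and 36.4 on day 23, 12.7, 61.1 and 23.2 on day 46 and 1128 and 8797 in skin (log2 fold change −7.59, standard error 1.00, adjusted p = 0.000161). S100a9, its partner, had 8.11, 9.38 and 3.17 on day 23, 6.84, 36.9 and 60.9 on day 46 and 818 and 5549 in skin (log2 fold change −7.26, standard error 0.88, adjusted p = 9.95e-05). The skin libraries themselves differed several-fold in both genes. Csf3r, the receptor of the neutrophil growth factor, named after its values were seen, had 22.9, 23.0 and 17.4 on day 23, 9.77, 15.4 and 15.7 on day 46 and 17.4 and 43.3 in skin and did not pass (adjusted p = 0.255). The defining granule and surface genes Ly6g, Camp, Ngp and Ltf were too low to be tested in tumors and skin alike.

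Chemokines of keratinocytes and lymphatics were among those lower, and Ccl3, Ccl4 and Ccl12 among those higher. Of 22 tested, 5 were higher, 8 were lower and 9 did not pass, with a median of −1.40. The lower share is below the 69.3% of all tested selected genes and is not read as a result. The higher genes fell to 1 without skin replicate 1 and 3 without skin replicate 2. Ccl27a, the keratinocyte chemokine that draws T cells into skin and overlaps Il11ra1 on the other strand, had 0, 11.1 and 4.75 on day 23, 9.77, 11.4 and 0.628 on day 46 and 3034 and 2952 in skin (log2 fold change −9.23, standard error 1.00, adjusted p = 4.7e-05). Cxcl14, made by epithelium and fibroblasts, had 289, 265 and 117 on day 23, 213, 249 and 146 on day 46 and 3159 and 2147 in skin (log2 fold change −3.68, standard error 0.36, adjusted p = 2.42e-05). Ccl4, a chemokine that activated macrophages and T cells release, had 194, 67.3 and 77.6 on day 23, 84.1, 63.1 and 58.4 on day 46 and 4.02 and 20.4 in skin (log2 fold change 3.01, standard error 0.60, adjusted p = 0.00202), with an adjusted p of 0.0509 without skin replicate 1. Ccl3 and Ccl12, named after their values were seen, rose too (Ccl3 with a log2 fold change of 2.76 and an adjusted p of 0.000737, Ccl12 with 2.83 and 0.00244). Cxcl16, which overlaps Zmynd15 on the other strand, had 1693, 1546 and 1157 on day 23, 957, 1184 and 1101 on day 46 and 896 and 873 in skin, a small difference (log2 fold change 0.50, standard error 0.17, adjusted p = 0.034) that was lost with either skin library left out (adjusted p = 0.128 and 0.151). Pf4, known from platelets and also from macrophages, had 967, 795 and 608 on day 23, 1316, 2049 and 779.8 on day 46 and 796 and 1164 in skin and did not pass (adjusted p = 0.906).

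Chemokine receptors went both ways, and the share of lower genes was below the 69.3% of all tested selected genes. Of 13 tested, 3 were higher, among them Cx3cr1 and Ccr1, and 7 were lower (5 without skin replicate 1 and 3 without skin replicate 2). Ccr1, a receptor of Ccl3 named after its values were seen, had 865, 595 and 458 on day 23, 375, 375 and 424 on day 46 and 52.2 and 62.5 in skin (log2 fold change 3.08, standard error 0.24, adjusted p = 7.81e-06). Ccr1 and Ccl4 were higher in every tumor than in either skin library. Ackr4, a scavenger receptor of keratinocytes and lymphatics that overlaps Acad11 on the other strand, had 703 and 1119 in skin and reads in a single tumor (4.26 in day 23 replicate 2). Of 9 tested interleukins and growth factors, Il1b alone was higher. Il1f9 and Il1a, alarm cytokines that keratinocytes hold, were lower. Il1f9 had 281 and 314 in skin and at most 4.26 in a tumor (adjusted p = 3.37e-05), and Il1a had 104 and 90.5 in skin and at most 31.0 in a tumor (adjusted p = 0.00356).

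T cell genes were lower in tumors than in skin or did not pass. Of 22 tested, none was higher, 14 were lower and 8 did not pass, with a median of −2.35. This share of lower genes is below the 69.3% of all tested selected genes and is not read as a result about T cells. The count of lower genes was 9 of 22 without skin replicate 1, 4 of 21 without skin replicate 2 and 8 of 22 after rescaling to the same total. Bcl11b, a factor of T cells that keratinocytes also use, had 14.8, 11.1 and 6.34 on day 23, 5.86, 20.8 and 5.65 on day 46 and 2821 and 4277 in skin (log2 fold change −8.36, standard error 0.54, adjusted p = 3.06e-06). Thy1, also on fibroblasts and on the gamma-delta T cells of skin, had 127, 116 and 63.4 on day 23, 105, 379 and 117 on day 46 and 1622 and 1265 in skin (log2 fold change −3.48, standard error 0.47, adjusted p = 0.000197). Trbc2, a constant region of the T cell receptor beta chain, had 83.3, 52.0 and 39.6 on day 23, 6.84, 47.0 and 67.2 on day 46 and 790.3 and 535 in skin (log2 fold change −3.99, standard error 0.72, adjusted p = 0.00111). Skin thus held more of these genes than any tumor. Cd8a, the co-receptor of cytotoxic T cells, had 79.7, 17.0 and 49.1 on day 23, 5.86, 14.1 and 30.8 on day 46 and 37.5 and 57.4 in skin, ranges that overlapped, and did not pass (log2 fold change −0.93, adjusted p = 0.286). The direction of Cd8a turned after rescaling on the selected genes (log2 fold change 0.33). Cd3e, the signaling chain of the T cell receptor, named after its values were seen, was lower (log2 fold change −1.71, standard error 0.64, adjusted p = 0.0465), but not with either skin library left out (adjusted p = 0.188 and 0.203), nor with edgeR or DESeq2 (adjusted p = 0.0632 and 0.0802).

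Genes of the gamma-delta T cells of mouse epidermis were lower as well. All 5 tested genes of this list were lower, with a median of −4.12. Of all tested selected genes 69.3% were lower, and the count alone is not read as a result about these cells. Without skin replicate 1 only 4 of the genes could be tested (median −5.52), and without skin replicate 2 only 3 (median −5.37). On the scale of the selected genes 3 could be tested, and 3 were lower. Tcrg-C1, a constant region of the gamma chain, had 2.95, 0 and 0 on day 23, 0, 0 and 0.628 on day 46 and 81.7 and 131 in skin (log2 fold change −6.26, standard error 0.63, adjusted p = 3e-05). Trdc, the constant region of the delta chain, had 0, 0.852 and 0 on day 23, 3.91, 0 and 0 on day 46 and 58.9 and 89.2 in skin (log2 fold change −5.67, standard error 0.68, adjusted p = 9.46e-05). Both were at or near 0 in each tumor. Of 4 tested genes of regulatory T cells, none was higher, 2 were lower and 2 did not pass. This share of lower genes is below the 69.3% of all tested selected genes and is not read as a result. Il2ra of this list had 6.34 to 52.0 in tumors and 21.4 and 43.3 in skin, ranges that overlapped. Among genes of regulatory T cells, Tnfrsf18 had 20.7, 17.9 and 12.7 on day 23, 9.77, 27.5 and 14.4 on day 46 and 509 and 512 in skin (log2 fold change −4.89, standard error 0.45, adjusted p = 1.76e-05), whereas Ctla4, an inhibitory receptor, had 10.3, 17.9 and 3.17 on day 23, 1.95, 11.4 and 13.8 on day 46 and 2.68 and 8.92 in skin and did not pass (adjusted p = 0.587). Pdcd1, which encodes PD-1, had 30.2, 11.9 and 12.7 on day 23, 3.91, 19.5 and 12.6 on day 46 and 12.1 and 11.5 in skin and did not pass either (log2 fold change 0.13, 95% interval −1.27 to 1.54, adjusted p = 0.873).

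Cytotoxic genes did not move together. Of 11 tested, Gzmf and Ifng were higher, Gzmc was lower and 8 did not pass. Gzmb, a granzyme of activated killer cells, had 89.2, 54.6 and 77.6 on day 23, 17.6, 50.4 and 60.9 on day 46 and 8.04 and 71.4 in skin and did not pass (log2 fold change 1.06, standard error 0.75, adjusted p = 0.256). The skin libraries differed several-fold in Gzmb, and its direction turned without skin replicate 1 (log2 fold change −0.44). Nkg7, a granule membrane protein, had 138, 51.1 and 66.5 on day 23, 17.6, 35.6 and 69.1 on day 46 and 103 and 84.1 in skin and did not pass (adjusted p = 0.228). Gzmc had 169, 212 and 229.8 on day 23, 82.1, 187 and 122 on day 46 and 569 and 422 in skin (log2 fold change −1.63, standard error 0.31, adjusted p = 0.00154). Ifng, interferon-gamma itself, named after its values were seen, had 22.9, 3.41 and 9.51 on day 23, 2.93, 14.8 and 1.26 on day 46 and 1.34 and 0 in skin (log2 fold change 2.26, standard error 0.85, adjusted p = 0.0468), close to the floor, and it did not pass with edgeR or DESeq2 (adjusted p = 0.0779 and 0.0814) or with either skin library left out (adjusted p = 0.116 and 0.335).

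Among genes of B and plasma cells, 3 antibody genes stood above skin. Igkc, the constant region of the kappa light chain, had 131, 287 and 50.7 normalized counts in the day 23 tumors, 137, 184 and 243 in the day 46 tumors and 37.5 and 14.0 in skin (log2 fold change 2.66, standard error 0.60, adjusted p = 0.00434). Jchain, which joins IgA and IgM units, had 16.2, 78.4 and 6.34 on day 23, 23.5, 16.1 and 21.97 on day 46 and 1.34 and 6.37 in skin (log2 fold change 2.37, standard error 0.83, adjusted p = 0.0358). Ighg2c, a heavy chain constant region, had 19.9, 46.9 and 1.58 on day 23, 10.8, 22.8 and 26.4 on day 46 and 4.02 and 0 in skin (log2 fold change 2.88, standard error 1.04, adjusted p = 0.0396). Day 23 replicate 2 was the highest tumor for all 3 genes. Each of these calls was lost when a skin library was left out, with an adjusted p of 0.122 for Igkc without replicate 2, 0.343 for Jchain without replicate 1 and 0.403 for Ighg2c without replicate 2. Igha had 88.5, 173 and 34.9 on day 23, 109, 90.0 and 138 on day 46 and 64.3 and 24.2 in skin and did not pass (adjusted p = 0.0963). Ighm, the heavy chain of IgM, had 237, 118 and 25.4 on day 23, 50.8, 126 and 201 on day 46 and 447 and 398 in skin (log2 fold change −2.08, standard error 0.74, adjusted p = 0.0379). It was lower, a call also lost with either skin library left out (adjusted p = 0.247 and 0.216).

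The same genes were set beside tumors labelled RAG1-/-, whose hosts make no mature T or B cells. This comparison was fitted with limma over 12 tumors, and the days differ between the genotypes (days 23 and 46 against days 13 and 23). Of 14746 genes tested, wild-type tumors were above those labelled RAG1-/- in 0.570% and below them in 0.142%. Of 1913 selected genes tested, 37 were higher and 2 lower. Of the 37, 8 were also higher in wild-type tumors than in skin and 8 were lower. T cell genes made up 9 of the 37, of 15 tested. Igkc had 0, 0 and 0 on day 13 and 1.31, 0 and 1.77 on day 23 in tumors labelled RAG1-/- (log2 fold change 6.80, standard error 0.44, adjusted p = 7.6e-07). Igha had 12.8, 1.11 and 4.76 on day 13 and 2.62, 2.13 and 0.442 on day 23 (log2 fold change 4.68, standard error 0.49, adjusted p = 0.000207). Cd8a had 0, 0 and 0 on day 13 and 0, 0 and 0.442 on day 23 (log2 fold change 4.55, standard error 0.54, adjusted p = 0.000583). Every wild-type tumor was above every tumor labelled RAG1-/- in these genes. Icos, a co-stimulatory receptor, had 0, 0 and 0 on day 13 and 5.24, 0 and 0.884 on day 23 in tumors labelled RAG1-/- (log2 fold change 3.99, standard error 0.55, adjusted p = 0.00221). It had 39.1, 29.0 and 15.8 normalized counts in the day 23 tumors, 8.80, 28.2 and 31.4 in the day 46 tumors and 135 and 185 in skin (log2 fold change −2.73, standard error 0.55, adjusted p = 0.00228 against skin). Icos and Trbc2 (log2 fold change 2.98, standard error 0.61, adjusted p = 0.0313 against RAG1-/-) were therefore higher in wild-type tumors than in tumors labelled RAG1-/- and lower than in skin.

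**Figure D4:**
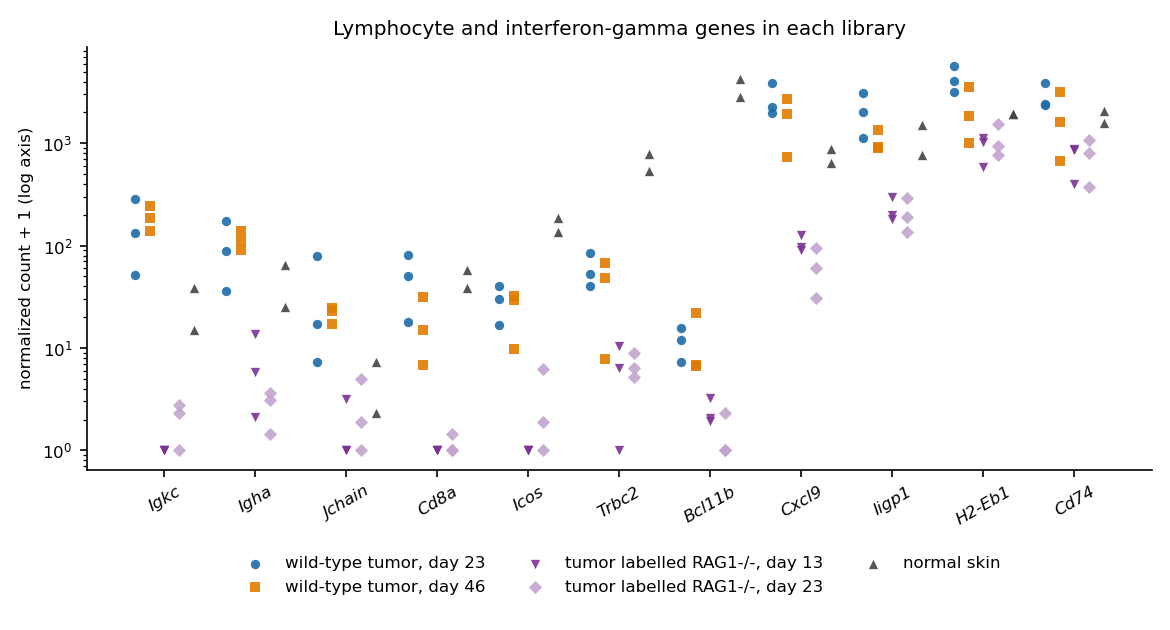
Normalized count plus 1 on a log axis for 11 lymphocyte, interferon-gamma-induced and MHC class II genes, with a point per library for wild-type tumors (3 of day 23 and 3 of day 46), tumors labelled RAG1-/- (3 of day 13 and 3 of day 23) and skin (2). All 11 were higher in wild-type tumors than in tumors labelled RAG1-/- at an adjusted p under 0.05. Against skin, Igkc, Jchain and Cxcl9 were higher and Icos, Trbc2 and Bcl11b lower.

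None of the genes that interferon-gamma induces was lower in tumors. Of 13 tested, 4 were higher than skin and 9 did not pass, with a median of 0.68, and 7 of the 13 were higher than in tumors labelled RAG1-/-. Against skin, 1 was higher without skin replicate 1 and 3 were without skin replicate 2, and 5 were on day 23 and 1 on day 46. Cxcl9, which draws T cells that carry Cxcr3, had 3899, 2282 and 1982 normalized counts in the day 23 tumors, 736, 2709.9 and 1917 in the day 46 tumors and 636 and 885 in skin (log2 fold change 1.43, standard error 0.44, adjusted p = 0.0198). Against tumors labelled RAG1-/-, with 127, 96.7 and 88.6 on day 13 and 58.9, 29.8 and 94.6 on day 23, it was higher in every wild-type tumor (log2 fold change 4.72, standard error 0.31, adjusted p = 7.6e-07). The lowest tumor, day 46 replicate 1, lay within the range of skin, and the call against skin was lost with either skin library left out (adjusted p = 0.232 and 0.116). Iigp1, an immunity-related GTPase, had 3118, 1135 and 2023 on day 23, 899, 913 and 1343 on day 46 and 762 and 1519.6 in skin and did not pass against skin (adjusted p = 0.402), whereas it was higher than in tumors labelled RAG1-/- (log2 fold change 2.77, standard error 0.24, adjusted p = 2.48e-05). The other genes that rose were Nos2, above, and Gbp2b and Gbp8, guanylate-binding proteins named after their values were seen. Gbp2b had 64.2, 17.0 and 33.3 on day 23, 2.93, 14.1 and 16.3 on day 46 and 1.34 and 3.82 in skin (log2 fold change 2.47, standard error 0.72, adjusted p = 0.0158). Against tumors labelled RAG1-/- it had a log2 fold change of 3.38 (adjusted p = 0.0219). Its call against skin was lost with either skin library left out (adjusted p = 0.181 and 0.0634).

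Of 6 genes induced by type I interferon, none passed in either direction against skin or against tumors labelled RAG1-/-. Without skin replicate 1, 3 of 6 were lower (median −1.52). Irf7, which overlaps Phrf1 on the other strand, had 676, 341 and 537 on day 23, 323, 373 and 478 on day 46 and 309 and 1199.6 in skin (adjusted p = 0.396). Oas2, an antiviral sensor of double-stranded RNA, had 84.8, 48.6 and 132 on day 23, 51.8, 79.2 and 57.8 on day 46 and 25.5 and 198 in skin (adjusted p = 0.993). The tumors lay within the range of the 2 skin libraries, which differed several-fold from each other, in Oas2 (log2 fold change −0.01, 95% interval −1.52 to 1.51). The selected genes leave out 18 of 24 genes of the type I list and 11 of 27 of the interferon-gamma list, which cultured MC38 cells express.

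The core letters of the interferon-stimulated response element (GAAANNGAA) occurred on either strand of 5 of 7 promoter windows of the interferon-gamma-induced genes (71.4%) and of 6 of 14 of the macrophage genes (42.9%). They occurred in 19.0% of the windows of selected genes higher in tumors, in 9.49% of those of selected genes lower in tumors and in 9.76% of all genes with a window. Gbp2b, at chr3:142594627-142594856, forward strand, is shown because it holds a match and differs between wild-type tumors and both other groups. The match is in capitals and lies on the opposite strand.
Gbp2b: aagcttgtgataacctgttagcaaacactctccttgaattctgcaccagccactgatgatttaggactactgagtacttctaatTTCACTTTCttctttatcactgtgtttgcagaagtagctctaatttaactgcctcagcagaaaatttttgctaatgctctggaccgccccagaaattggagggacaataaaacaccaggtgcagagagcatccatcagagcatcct

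MHC class II genes, which present antigen to helper T cells, mostly did not pass. Of 9 tested, Ctss was higher, H2-DMb2 was lower and 7 did not pass. H2-Aa had 11520.1, 7664 and 6238 on day 23, 1564, 5625 and 11682 on day 46 and 6797 and 4862 in skin (log2 fold change 0.11, adjusted p = 0.89). H2-Eb1 had 5659, 4093 and 3156 on day 23, 1005, 1833 and 3574 on day 46 and 1934 and 1921 in skin (log2 fold change 0.54, adjusted p = 0.275). Day 46 replicate 1 was the lowest tumor in both. Cd74 and H2-Eb1 were higher in wild-type tumors than in tumors labelled RAG1-/- (log2 fold changes 1.60 and 1.56, adjusted p = 0.037 and 0.0115). H2-DMb2 had 41.3, 46.0 and 20.6 on day 23, 15.6, 27.5 and 50.2 on day 46 and 121 and 129 in skin (log2 fold change −1.98, standard error 0.50, adjusted p = 0.00767). It missed the threshold with either skin library left out (adjusted p = 0.0746 and 0.0844).

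Among genes of blood vessels, Esm1 was higher than in skin, and the others were lower or did not pass. Of 17 tested genes of blood vessels, 1 was higher, 10 were lower and 6 did not pass, with a median of −1.17. With either skin library left out, 5 of 16 were lower, and the share of lower genes with both is below that of all tested selected genes. Esm1 (chr13:113209659-113218098, forward strand), endocan, a mark of the tip cells of sprouting vessels, had 126, 144 and 98.2 normalized counts in the day 23 tumors, 312, 549 and 176 in the day 46 tumors and 9.38 and 0 in skin (log2 fold change 5.92, standard error 0.76, adjusted p = 0.000144). It was above skin in 6 of 6 tumors. Pecam1, the common endothelial adhesion molecule CD31, had 166, 154 and 136 on day 23, 198, 271 and 185 on day 46 and 382 and 407 in skin (log2 fold change −1.12, standard error 0.22, adjusted p = 0.00174). Flt1, a receptor of VEGF, had 237, 303 and 261 on day 23, 416, 552 and 320.2 on day 46 and 699 and 625 in skin (log2 fold change −0.98, standard error 0.22, adjusted p = 0.004). Both turned direction after rescaling on the selected genes, with log2 fold changes of 0.18 and 0.32, neither past the threshold (adjusted p = 0.522 and 0.268). Sele, the selectin that inflamed skin vessels use to catch leukocytes, had 21.4 and 24.2 in skin and no read in any tumor, at least 8.38-fold lower.

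Lymphatic genes and most contractile genes were lower, where 69.3% of all tested selected genes were lower. The share of lower contractile genes was near this and is not read as a result about these cells. All 6 lymphatic genes were lower, with a median of −5.21, and 4 were with either skin library left out. Prox1, the factor that specifies lymphatic endothelium, had 15.5, 4.26 and 4.75 on day 23, 0, 0 and 2.51 on day 46 and 178 and 103 in skin (log2 fold change −5.30, standard error 0.68, adjusted p = 0.000145). Ccl21a, which guides dendritic cells and T cells into lymphatics, had 23.6, 10.2 and 34.9 on day 23, 0, 0 and 7.53 on day 46 and 399 and 408 in skin (log2 fold change −5.93, standard error 0.84, adjusted p = 0.000257). Lyve1, also on some macrophages, had 7.38, 17.9 and 23.8 on day 23, 73.3, 75.9 and 17.0 on day 46 and 127 and 227 in skin (log2 fold change −2.65, standard error 0.65, adjusted p = 0.00661). No difference between the days passed the test in these genes. Of 10 genes of smooth muscle and pericytes, 8 were lower, 4 without skin replicate 1, 5 without skin replicate 2 and 5 on the scale of the selected genes. Myh11, the smooth muscle myosin, had 4.43, 5.97 and 1.58 on day 23, 7.82, 32.9 and 4.39 on day 46 and 367 and 405 in skin (log2 fold change −5.72, standard error 0.70, adjusted p = 0.000108). Rgs5, of pericytes, had 176, 211 and 47.5 on day 23, 335, 647 and 239 on day 46 and 837 and 681 in skin (log2 fold change −1.82, standard error 0.54, adjusted p = 0.0167).

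Most fibroblast genes are expressed by MC38 cells in culture, so that only 4 of 18 genes of the fibroblast list and 9 of 22 of the list of activated fibroblasts were among the selected genes. Lum, the collagen-binding proteoglycan lumican, had 67.1, 56.3 and 28.5 on day 23, 174, 351 and 38.9 on day 46 and 6623 and 5714 in skin (log2 fold change −6.25, standard error 0.67, adjusted p = 4.47e-05). Pi16, of adventitial fibroblasts, had 0.738, 0 and 0 on day 23, 2.93, 14.8 and 9.42 on day 46 and 167 and 182 in skin (log2 fold change −5.77, standard error 0.59, adjusted p = 3.5e-05). Postn, periostin of remodeling matrix, had 692, 504 and 507 on day 23, 1948, 2881 and 480.3 on day 46 and 5344 and 4592 in skin (log2 fold change −2.49, standard error 0.53, adjusted p = 0.00309). It missed the threshold with either skin library left out (adjusted p = 0.0818 and 0.0654). Day 46 replicate 2 held the highest level of Lum, Pi16 and Postn among the tumors. Mmp13, a collagenase, was the gene of these lists that stood above skin, with 361, 1068 and 705 on day 23, 442, 972 and 309 on day 46 and 106 and 237 in skin (log2 fold change 1.85, standard error 0.50, adjusted p = 0.0112), although not without skin replicate 1 (adjusted p = 0.224).

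Of 16 genes of hypoxia and glycolysis only 2 were near 0 in MC38 cells, and they went in opposite directions. Car9, carbonic anhydrase 9, which hypoxia induces in carcinoma cells and which overlaps Gm12454 on the other strand, had 864, 696 and 579.9 normalized counts in the day 23 tumors, 518, 388 and 478 in the day 46 tumors and 65.6 and 35.7 in skin (log2 fold change 3.52, standard error 0.26, adjusted p = 5.8e-06). It was higher in 6 of 6 tumors and had at most 6.84 normalized counts in cultured MC38 cells, and whether its reads came from host or MC38 cells cannot be told apart. Ndufa4l2, a mitochondrial protein that hypoxia also induces and that overlaps Shmt2 on the other strand, had 10.3, 15.3 and 17.4 on day 23, 22.5, 47.0 and 28.3 on day 46 and 514 and 729 in skin (log2 fold change −4.80, standard error 0.41, adjusted p = 1.13e-05). None of 5 tested red cell genes passed in either direction with all libraries, whereas 5 of 5 were lower without day 46 replicate 3 (median −2.42) and 2 of 5 on day 23. Hbb-bs, a beta-globin, had 906, 1340.1 and 621 on day 23, 640.2, 3899 and 17810.4 on day 46 and 5332 and 3142 in skin (adjusted p = 0.309), with day 46 replicate 3 far above the other tumors. Thbd, thrombomodulin, had 42.8, 21.3 and 17.4 on day 23, 64.5, 113 and 26.4 on day 46 and 585 and 478 in skin (log2 fold change −3.75, standard error 0.54, adjusted p = 0.000274).

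The scale on which tumors and skin are compared bears on every value near 0. Size factors recomputed on the selected genes alone moved the median log2 fold change of all genes tested from −0.22 to 1.11, and rescaling to the same total moved it to 0.19. On the first of these scales 506 of 3320 selected genes were higher and 1854 lower, where 56.5% of all genes tested were higher and 16.2% lower, and on the second 251 were higher and 2256 lower. Keratinocyte genes had a median of −10.93 and macrophage genes of 2.12 on the scale of the selected genes. T cell genes kept a negative median of −1.12, with 7 lower and none higher. Blood vessel genes had a median of 0.13 in place of −1.17, and MHC class II genes one of 1.04 in place of −0.26.

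**Figure D5:**
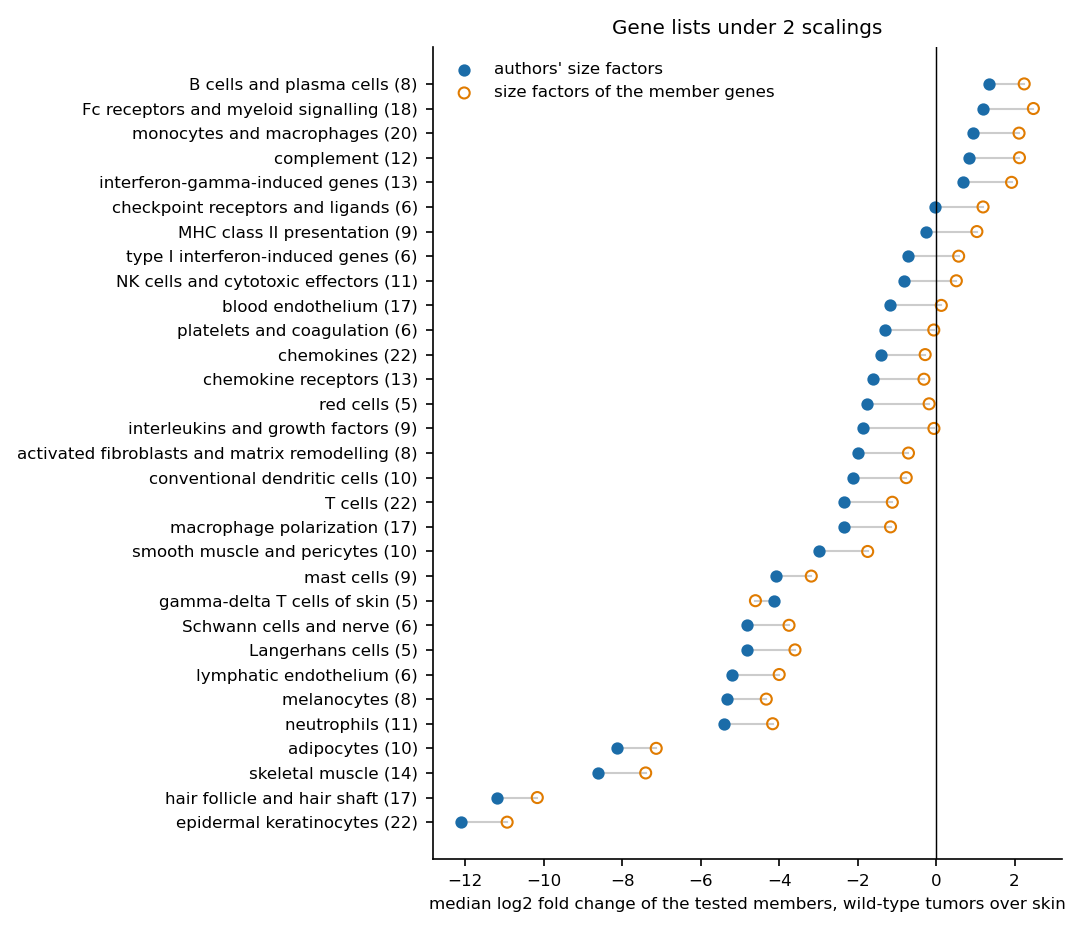
Median log2 fold change of wild-type tumors over skin for each list with at least 5 tested genes (number in parentheses), with the authors' size factors (filled points) and with size factors computed on the selected genes alone (open points). The open points lie to the right of the filled ones in every list but that of gamma-delta T cells, and lists near 0, such as blood endothelium, change sign.

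Tumors of day 46 did not differ from tumors of day 23 in any selected gene by limma, nor in any of the 16554 genes tested (0% called). At an unadjusted p under 0.05 there were 439 selected genes and 1163 genes in all. With edgeR on the recovered reads 0 selected genes passed, and with DESeq2 69 were higher and 6 lower on day 46. The median log2 fold change of the selected genes was 0.12 between the days. Cx3cr1 had log2 fold changes over skin of 3.97 on day 23 and 4.13 on day 46, Nos2 had 4.54 and 3.09, and C1qb had 1.77 and 1.58. For Cxcl9 the values were 1.79 (adjusted p = 0.0121) and 1.06 (adjusted p = 0.102), and the difference between the days was not past the threshold (adjusted p = 0.777).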

How the data were processed

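RNA was read with QuantSeq 3′ libraries on the Ion Proton System in 22 samples, of which 16 (cultured MC38 cells, wild-type tumors, tumors labelled RAG1-/- and skin) stand in the table used here. Per the study's methods, the authors removed adapters with Cutadapt and low-quality bases and reads under 22 nucleotides with Trimmomatic. They aligned to mm10 with STAR, then with Bowtie2 for what STAR left, kept only the primary location of a read that fits several, dropped ribosomal RNA and used HTSeq to count each gene. Tool versions, the annotation and the strand setting of the counting were not given in the sources used here. Keeping 1 alignment can put the reads of near-identical genes on the wrong copy. The deposited signal values are counts divided by DESeq2 size factors by the authors, and dividing them by the value of 1 read gave whole numbers (tolerance 0.001) for 100% of genes in each of the 16 libraries. Reads recovered in this way served edgeR 4.0.16 and DESeq2 1.42.0 as alternatives. A second table, of 6 tumors treated with antibodies, was not used because its column names match no sample label.

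Genes were selected as autosomal with a mean under 5 normalized counts over the 2 MC38 libraries. The members and gene lists were chosen with earlier results of these data known. Groups were compared with limma 3.58.1 (R 4.3.3, with a trend) on log2(normalized count + 1). Genes entered with a mean of 5 or more over the libraries fitted, with 3 groups over 8 libraries or 4 groups over 12 tumors, and Benjamini-Hochberg adjustment over all genes tested. Genes named in the text were, in each list, the 4 highest by the mean of tumors and skin and those with the highest and lowest log2 fold change, the 15 largest changes per direction with groups that do not overlap, and the 5 largest per direction against tumors labelled RAG1-/-. Predicted genes and pseudogenes were left out of the last 2 sets, and other names are marked as chosen after their values were seen. Some items of these lists are not reported here. The lists fixed for this work that the text does not describe further are checkpoint receptors and ligands, with 1 of 6 tested genes lower and 0 higher, and platelets and coagulation, with 2 of 6 lower and 0 higher. The fits were tested on simulated data. Promoter windows are from RefSeq. Replicate libraries differed by more than counting noise (chi-square per degree of freedom 19.1 to 87.2). Alternatives changed the pseudocount, filter, scaling, trend, grouping, tool, selection threshold and set of libraries, with their effect given in the closing section.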

Additional observations from a re-analysis of the deposited data

Results flagged for a closer look

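Among the wild-type tumors, single libraries stood apart from the other 5 in the summed normalized count of a gene list, by Dixon's criterion for 6 samples. Of 38 groups of values tested 8 passed. The criterion assumes normally distributed values, whereas these sums are skewed, and the lists share genes and libraries. How many groups would pass by chance is therefore not known. Day 23 replicate 2 held 1157 normalized counts of keratinocyte genes, where the next tumor held 87.1, and 45.2 of sebaceous genes, where the next held 4.43. Day 46 replicate 2 held 67.1 of melanocyte genes against 30.1 in the next tumor, 704 of fibroblast genes against 252, 1649 of smooth muscle and pericyte genes against 796, and 3645 of macrophage polarization genes against 2168. Day 46 replicate 3 held 445 of adipocyte genes against 98.0 and 50993 of red cell genes against 10184. These tumors lay far below skin in the keratinocyte, sebaceous, melanocyte and adipocyte sums. Their part in the differences between tumors was not tested. In skin replicate 2, genes that MC38 cells express highly and that were at most at 1 read in skin replicate 1 were read at a median of 5.51% of their MC38 level. Where these reads came from was not tested.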

How the results depend on the processing

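Of 120 named genes past the threshold against skin, 80 passed with the same direction in each of the 22 alternatives that tested them. Of all 144 named genes, 125 kept their direction in each alternative that tested them. Some genes were not tested in every alternative. Tnf, Il6 and Il12b are not counted among these named genes. The counts of the selected genes against skin were 168 higher and 2450 lower with edgeR and 176 higher and 2321 lower with DESeq2, beside 181 and 2500 with limma. A minimum mean of 20 left 106 higher and 1628 lower (100 and 1628 on day 23, 96 and 1541 on day 46), and 21 higher and 1 lower than in tumors labelled RAG1-/-, since fewer genes were tested. Size factors of the selected genes gave 506 higher (482 on day 23, 414 on day 46), and 11 list sums above skin in every tumor in place of 2. Genes with a mean under 1 in MC38 cells gave 112 higher (107 on day 23, 100 on day 46), and genes with 0 reads there gave 78 higher and 1365 lower (72 and 1362 on day 23, 70 and 1282 on day 46). With these choices the share of reads differed by 9.24 and 5.24 percentage points in place of 14.7. Leaving out 1 library gave 119 to 190 higher and 1827 to 2590 lower against skin, 106 to 172 higher on day 23, 102 to 161 higher on day 46, 0 to 1 higher on day 46 than on day 23, and 26 to 54 higher and 1 to 3 lower than in tumors labelled RAG1-/-. Against skin, the lowest counts of higher genes were those without skin replicate 1. Between the days, DESeq2 gave 69 higher and 6 lower and limma without a trend gave 2 higher. Against tumors labelled RAG1-/-, DESeq2 gave 76 higher and 6 lower, and there was 1 lower with all 16 libraries, with no filter, with no trend, with a pseudocount of 0.1 and on the upper quartile. The cause of these differences was not tested.

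With the replicate number as a block (replicate block), 175 genes were higher and 2452 lower against skin, 38 higher and 2 lower than in tumors labelled RAG1-/- and 0 between the days. Deviations of libraries with the same number had correlations of −0.108 to −0.003 over 7 pairs among tumors and skin. Over 14 pairs with different numbers they were −0.0489 to 0.0614. Among the 12 tumors, 18 pairs with the same number had −0.236 to 0.246, of which 4 were over 0.1. Pairs with different numbers were not computed there, and deviations within groups of 2 or 3 libraries depend on each other. Whether the samples share more than a number therefore cannot be told.

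The log2 fold change of some named genes turned. On the scale of the selected genes the values were 0.33 for Cd8a, 0.55 for Csf3r, 0.32 for Flt1, 0.11 for Hbb-bs, 0.82 for Irf7, 0.46 for Nkg7, 1.26 for Oas2, 0.18 for Pecam1 and 0.092 for Pirb. Oas2 had 0.38 at the same total, 0.19 at the same upper quartile and 0.0014 with a pseudocount of 0.1. With the replicate block Cd74 had −0.027 and H2-Aa −0.12. With 1 library left out, the values ran from −0.088 to 0.47 for Cd74, from −0.11 to 0.35 for Csf1r, from −0.16 to 1.27 for Ctla4, from −0.17 to 1.58 for Fcgr1, from −0.058 to 0.24 for Fcgr2b, from −0.44 to 2.56 for Gzmb, from −0.22 to 0.50 for H2-Aa, from −0.11 to 0.89 for Iigp1, from −1.45 to 0.50 for Irf7, from −1.46 to 1.45 for Oas2, from −0.088 to 0.43 for Pdcd1 and from −0.22 to 0.33 for Pf4.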
